A study of Rattus norvegicus with 6 samples.

Results

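The lysosome and autophagy machinery was taken as every gene whose annotated symbol names a cathepsin (Cts and a letter), a LAMP protein, a V-ATPase subunit (Atp6v), a numbered ATG gene, an LC3 or GABARAP protein, Ulk1, Ulk2, Becn1 or Sqstm1. The array held 64 such genes of 14217 in all, and 52 of them were bright enough to be tested, among 10372 genes tested. Each gene was read from its probe set with the highest mean over the 6 arrays. The rule used symbols and brightness only, not the difference between diets. Liver RNA of Sprague-Dawley rat pups aged 3 weeks, at weaning, was measured on Affymetrix arrays, 1 array per pup sample. The high fat group held 3 samples from pups whose mothers ate a high fat diet, and the control group held 3 samples from pups whose mothers ate standard chow. The labels give the mother's diet and not the litters, so pups of a group may share a dam, and p-values measure the spread between these samples. The contrast addresses how maternal feeding bears on the weanling liver.

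Autophagy encloses cytoplasm, organelles or lipid droplets in a double membrane that fuses with the lysosome, where acid hydrolases digest the contents. The ULK kinases start the process under nutrient control, the Beclin complex makes the lipid signal for the growing membrane, and the ATG conjugation enzymes attach LC3 and GABARAP proteins to it. In the lysosome the V-ATPase pumps protons and the cathepsins cut proteins. In liver, autophagy is known to supply amino acids and fatty acids between meals, and the transcription factor TFEB drives many of these genes through a short promoter element built on the E-box CACGTG.

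RefSeq promoter windows (build GRCr8) were matched for 54 of the 64 members. The palindrome CACGTG, which reads the same on both strands, stood in 8 of these 54 windows (14.8%), against 6.65% of all 27457 rat promoter windows of the same length. Over tested genes only, it stood in 8 of 44 member windows (18.2%), against 9.67% of 8706. The longer TCACGTGA, which contains CACGTG and therefore overlaps it, stood in 5 members (9.26%), against 0.867% of all windows, and in 11.4% of tested members, against 1.72% of tested genes. A still longer palindromic form of the element, with a further base on each side, stood in 0 of the 54 windows, against 0.277% of all windows and 0.574% of tested genes. The members with CACGTG include a Beclin complex subunit, conjugation genes, proton pump subunits, cathepsins and a LAMP protein, and the stretches around the element are shown because it is a promoter feature that these members of different function share. They run 5′ to 3′ on the strand of the gene, with CACGTG in capitals. Lamp1 (chr16:83075064-83075263, minus strand) carried 5 copies, Ctsd (chr1:206968822-206968991, minus strand) and Atg3 (chr11:69159281-69159350, minus strand) carried 2 each. Atp6v0d1 (chr19:50357249-50357328, minus strand), Atg5 (chr20:49380785-49380834, plus strand) and Ctsf (chr1:211581999-211582048, plus strand) carried 1 each, upstream of the start. In Atg14 (chr15:23306792-23306815, minus strand) the element began at base 7 of the transcript, and the first 24 bases are shown.
Lamp1: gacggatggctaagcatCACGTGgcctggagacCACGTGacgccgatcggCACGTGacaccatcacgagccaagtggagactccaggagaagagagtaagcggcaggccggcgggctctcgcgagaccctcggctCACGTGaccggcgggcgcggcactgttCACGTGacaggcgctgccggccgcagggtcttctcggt
Ctsd: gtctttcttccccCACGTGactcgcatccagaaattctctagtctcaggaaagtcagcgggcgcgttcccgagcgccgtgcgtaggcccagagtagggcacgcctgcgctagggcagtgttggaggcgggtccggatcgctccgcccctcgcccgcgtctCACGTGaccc
Atp6v0d1: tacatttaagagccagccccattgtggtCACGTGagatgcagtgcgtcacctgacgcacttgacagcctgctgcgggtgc
Atg3: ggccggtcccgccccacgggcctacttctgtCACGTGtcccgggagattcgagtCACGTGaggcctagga
Atg5: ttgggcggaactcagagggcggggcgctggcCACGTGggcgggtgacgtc
Ctsf: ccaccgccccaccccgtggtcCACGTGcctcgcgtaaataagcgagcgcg
Atg14: aaatccCACGTGactggccctgag

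Atp6v0e1 was the eighth member with CACGTG, at base 25 of its transcript. A match of letters is a description and not a binding site. The tested members with CACGTG had a median difference of 0.0055 on the log2 scale (n = 8, -0.12 to 0.62), and the tested members with a promoter window but no CACGTG had a median of -0.0092 (n = 36, -0.69 to 0.55). The motifs were chosen after these data had been seen. The other motif letters searched on both strands were TGACNNNGC, the antioxidant response core, in 20.4% of member windows against 12.2% of all windows, and GTAAACA, a forkhead core, in 1.85% against 3.76%. The letters TGATGNAAN were found in 0 of the 54 member windows, against 3.8% of all windows.

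The tissue read as liver on every array. All 8 measured hepatocyte markers (of 9 listed) were above the brightness limit on each array, and their summed linear signal was 211700 to 225300 in the high fat group and 232200 to 235200 in the control group. High fat replicates 1 and 3 stood apart from the other arrays. High fat replicate 1 carried exocrine pancreas transcripts: the 11 pancreas genes on the array summed to 54430 there, against 1873 to 4172 on the other 5 arrays. High fat replicate 3 had an Xist log2 signal of 4.45, against 12.46 to 13.31 on the others, and an Eif2s3y signal of 11.14, against at most 3.99. All 9 measured sinusoidal endothelium markers (of 12 listed, none at 0) had a lower mean in the high fat group, beside 5509 of 10372 genes tested. Their summed signal was 12450 to 16100 in the high fat group, against 21170 to 24650 in the control group. Of the 9, 5 were at least 1.5-fold lower with an unadjusted p under 0.05, beside 3.36% of all genes. Because whole liver was used, fewer cells of a type and less RNA per cell cannot be told apart, and the part of these cell types in the values below was not tested.

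In pups of high fat dams the median difference of the machinery lay near that of all genes, and the set as a whole was not tested. No member passed an adjusted p under 0.05 in limma, the moderated linear model fitted over all genes, where 4 of 10372 genes (0.0386%) passed, and the smallest adjusted p of a member was 0.246. Of the 52 tested members, 24 had a higher mean and 28 a lower mean in the high fat group, with a median difference of -0.048 on the log2 scale, beside -0.022 over all genes tested. The differences ran from -0.69 to 0.62. The middle of the absolute differences was 0.17 for members and 0.19 for all genes, and 36 members (69.2%) lay within 0.25 of 0, beside 60.9% of all genes.

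Counts of members at an unadjusted p under 0.05, with or without a fold limit, did not exceed the shares over all genes. At an unadjusted p under 0.05 stood 4 members (7.69%), beside 14% of all genes: Atg14, Ulk1 and Gabarapl1 with higher means (6.55% of all genes in that direction) and Map1lc3a with a lower mean (7.49% of all genes). With at least 1.5-fold asked for as well, 1 member was higher, Atg14, beside 3.34% of all genes, and 0 were lower, beside 3.36%, which makes 1 in either direction, beside 6.69%. The 2 groups of 3 arrays did not overlap for 11 members (21.2%), beside 20.8% of all genes. The high fat arrays lay above the control arrays for 7 members (13.5%, beside 9.26% of all genes) and below for 4 (7.69%, beside 11.6% of all genes).

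The 95% intervals show what size of difference the arrays leave room for. They stayed within 2-fold either way for 48 of the 52 members and within 1.5-fold for 30. They reached past 2-fold for Atg14 (0.19 to 1.06 on the log2 scale), Atg16l2 (-1.15 to 0.35), Ctsk (-1.93 to 0.55) and Atp6v1b2 (-0.098 to 1.11). The middle width of an interval was 0.72 log2 units.

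**Figure D1:**
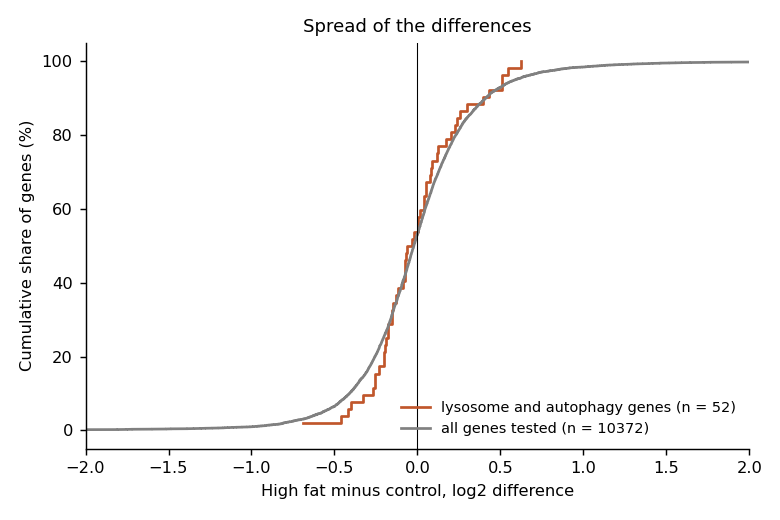
Cumulative share of genes (vertical axis, percent) against the difference in log2 signal, high fat minus control (horizontal axis), for the 52 tested members and for all 10372 genes tested. The curves run together around 0, with medians of -0.048 for members and -0.022 for all genes, and no member lies beyond -0.69 or 0.62.

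**Figure D2:**
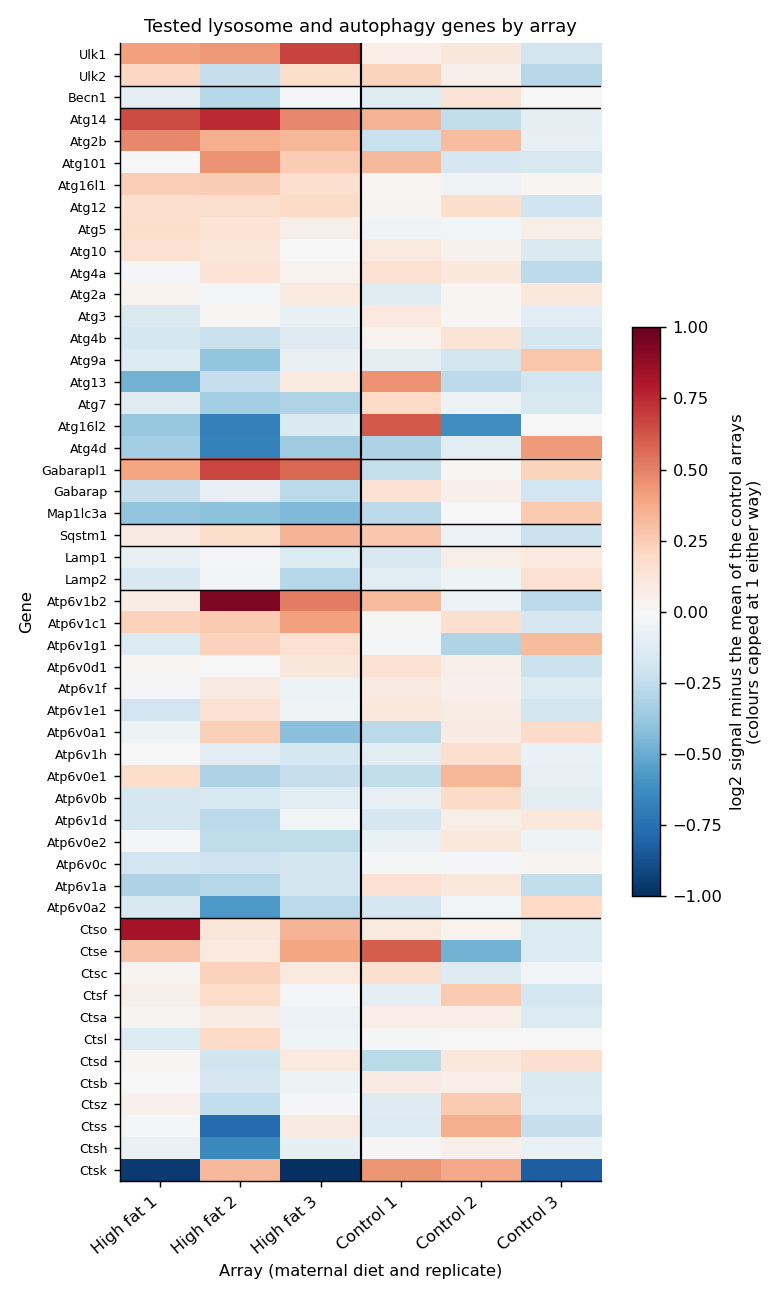
Log2 signal of each tested member (rows, by role) on each of the 6 arrays (columns), as the difference from the mean of the 3 control arrays, with colours capped at 1 either way. Atg14, Ulk1 and Gabarapl1 are above the control mean on all 3 high fat arrays, and Map1lc3a and Atp6v0c below it on all 3. Many other members also keep to 1 side, such as Atg2b, Atg16l1 and Atp6v1c1 above and Atg4d, Becn1 and Lamp2 below.

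Among the initiating kinases, Ulk1, the main autophagy kinase that AMPK and mTORC1 act on, had the smallest p of the module. Its log2 signals were 9.86, 9.89 and 10.13 in the high fat group and 9.52, 9.57 and 9.27 in the control group. All high fat arrays lay above all control arrays, a difference of 0.51 (SE 0.15, 1.42-fold, unadjusted p = 0.0111, limma adjusted p = 0.246). The second probe set of Ulk1 pointed the same way, at 0.22, and its groups did not overlap either. Ulk2, a related kinase, had 9.32, 8.88 and 9.29 in the high fat group and 9.33, 9.16 and 8.83 in the control group, so the groups overlapped and the difference was 0.052 (SE 0.19). Among the partners of ULK1 in its complex, Atg13 differed by -0.20 and Atg101 by 0.24, both with overlapping groups.

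In the Beclin lipid kinase complex, Atg14, the subunit that directs the complex to the site of autophagosome formation, had the highest difference of the 52 members. Its log2 signals were 8.49, 8.58 and 8.32 in the high fat group and 8.18, 7.59 and 7.74 in the control group. The groups did not overlap, with a difference of 0.62 (SE 0.18, 1.54-fold, unadjusted p = 0.0121, limma adjusted p = 0.25). Without high fat replicate 2, control replicate 2 or control replicate 3 the difference was 0.50 to 0.58, below 1.5-fold, so its place on the looser list rests on those arrays. Becn1, the scaffold of the same complex, had 10.80, 10.61 and 10.88 in the high fat group and 10.78, 11.02 and 10.89 in the control group. These overlapped, at a difference of -0.13 (SE 0.14, limma adjusted p = 0.711).

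The genes that feed lipid to the growing membrane gave mixed values. Atg2b, a lipid transfer protein, had 10.44, 10.32 and 10.29 in the high fat group and 9.74, 10.27 and 9.88 in the control group, without overlap, at 0.39 (SE 0.17, limma adjusted p = 0.367). Its other probe set above the brightness limit gave 0.34, with overlap. Atg2a, its paralog, differed by 0.039. Atg9a, the lipid scramblase carried on vesicles, differed by -0.20 (SE 0.17) on the probe set used and by 0.056 on its other bright probe set, so its direction is not settled.

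The conjugation enzymes that attach LC3 and GABARAP to lipid had small differences of either sign. Atg7, the enzyme that activates both conjugation pathways, had 8.11, 7.89 and 7.93 in the high fat group and 8.43, 8.18 and 8.08 in the control group, at -0.26 (SE 0.15, limma adjusted p = 0.489), with high fat replicate 1 inside the control range. Atg5 and Atg12, the conjugate that helps place LC3, differed by 0.12 (SE 0.12) and 0.17 (SE 0.14), and the other bright probe sets of Atg5 gave 0.24, without overlap, and -0.29. Atg16l1, which binds that conjugate to the membrane, had 9.48, 9.49 and 9.40 in the high fat group and 9.25, 9.19 and 9.25 in the control group. All high fat values lay above, by a small 0.23 (SE 0.12, limma adjusted p = 0.437). Atg16l2, its paralog, differed by -0.40 with an SE of 0.32. Atg3 and Atg10, the E2-like enzymes, differed by -0.066 and 0.089.

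The ATG4 proteases prime LC3 and GABARAP and later cut them from lipid. Atg4d had 8.28, 7.95 and 8.27 in the high fat group and 8.32, 8.51 and 9.05 in the control group. The high fat values lay below without overlap, by -0.46 (SE 0.22, limma adjusted p = 0.403), with control replicate 3 highest. Atg4b differed by -0.18, with overlap, on the probe set used and by -0.38, without overlap, on its other bright probe set. Atg4a differed by 0.051, with overlap. In all, 9 of the 16 ATG genes had a higher mean and 7 a lower mean in the high fat group, with a median of 0.045.

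The LC3 and GABARAP proteins themselves had opposite signs. Gabarapl1, a GABARAP-family protein known to respond to FOXO factors in mouse muscle, had 12.11, 12.38 and 12.29 in the high fat group and 11.48, 11.73 and 11.94 in the control group. The groups did not overlap, at 0.55 (SE 0.16, 1.46-fold, unadjusted p = 0.0124, limma adjusted p = 0.251). With the 3' minus 5' difference of the control probe sets as a covariate the difference was 0.45 and its unadjusted p was above 0.05. A separate probe set of Gabarapl1 gave 9.82, 10.43 and 10.24 in the high fat group and 9.45, 9.68 and 9.60 in the control group, again without overlap, at 0.59.

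Map1lc3a, an LC3 protein, had 9.73, 9.72 and 9.69 in the high fat group and 9.86, 10.13 and 10.39 in the control group. The high fat values were tightly grouped and all below the control values, at -0.42 (SE 0.16, 1.33-fold, unadjusted p = 0.0378, limma adjusted p = 0.332). Its unadjusted p was above 0.05 without any 1 of the high fat arrays, without control replicate 2 and without control replicate 3. Gabarap, the founding protein of its family, had 13.43, 13.58 and 13.39 in the high fat group and 13.80, 13.71 and 13.47 in the control group, with overlap, at -0.19 (SE 0.14). Map1lc3b and Gabarapl2 were on the array only on probe sets annotated to a further gene as well, and are given no values.

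Sqstm1, the p62 receptor that brings ubiquitin-tagged cargo to LC3 and is itself degraded, had 12.72, 12.82 and 12.98 in the high fat group and 12.91, 12.59 and 12.43 in the control group. The groups overlapped, at 0.20 (SE 0.17, limma adjusted p = 0.638). Its other bright probe sets gave -0.37 and 0.66, so no direction is settled for it.

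**Figure D3:**
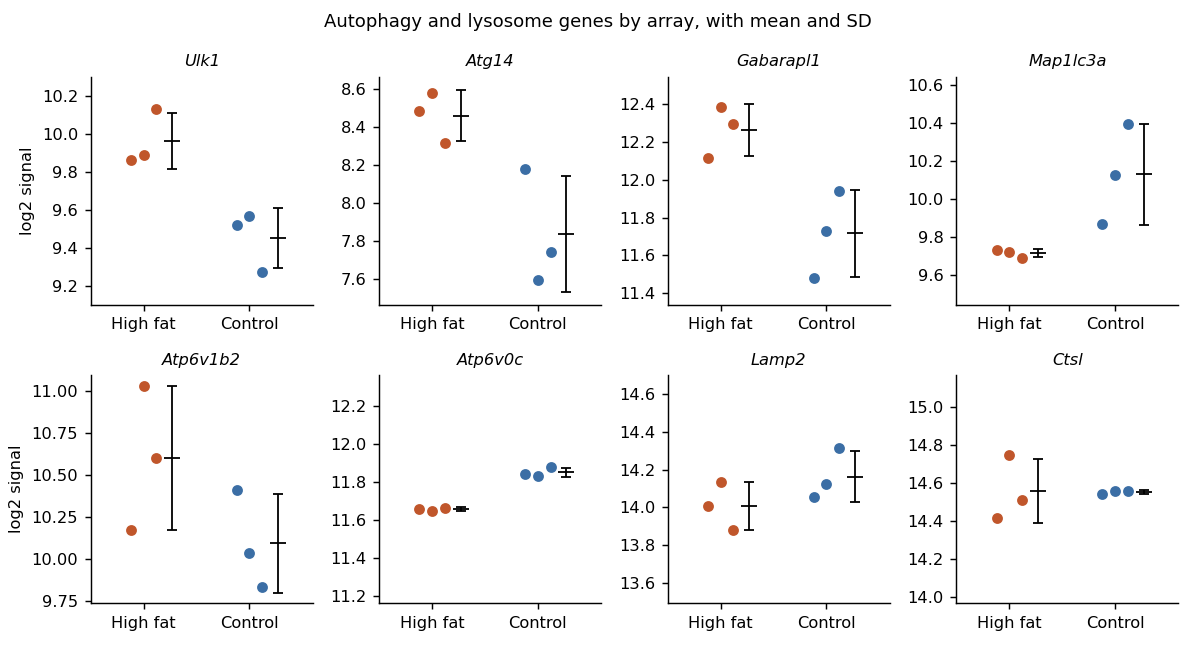
Log2 signal (vertical axis) of members on each array, high fat left of control in each panel, with points for arrays and black bars for the group mean and SD (n = 3), each panel on its own axis. The groups do not overlap for Ulk1, Atg14, Gabarapl1, Map1lc3a and Atp6v0c, and they overlap for Atp6v1b2, Lamp2 and Ctsl.

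Both measured LAMP proteins, the main glycoproteins of the lysosomal membrane, had overlapping groups. Lamp1 had 12.78, 12.83 and 12.72 in the high fat group and 12.70, 12.92 and 12.95 in the control group, at -0.076 (SE 0.13, limma adjusted p = 0.832). Lamp2, whose LAMP2A form takes up proteins in chaperone-mediated autophagy, had 14.01, 14.14 and 13.88 in the high fat group and 14.06, 14.12 and 14.31 in the control group, at -0.15 (SE 0.14), with a further probe set at 0.087. The 5 CACGTG copies of Lamp1 printed above thus sit before a gene whose 95% interval ran from -0.38 to 0.23.

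The V-ATPase has a cytosolic V1 sector, which splits ATP, and a membrane V0 sector, which carries protons. Of 15 tested subunits, 5 had a higher mean and 10 a lower mean in the high fat group, with a median of -0.089. The V1 subunits split evenly, 4 higher and 4 lower (median -0.0091), and 6 of the 7 V0 subunits had a lower mean (median -0.15), beside 5509 of 10372 genes tested. No V0 subunit had an unadjusted p under 0.05, and V1 and V0 were not tested against each other.

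Atp6v1c1, the V1 subunit that links the sectors, had 10.30, 10.33 and 10.48 in the high fat group and 10.08, 10.23 and 9.90 in the control group. The high fat values lay above, by 0.30 (SE 0.14, limma adjusted p = 0.399). Atp6v1b2, the B subunit made in most tissues, had 10.17, 11.03 and 10.60 in the high fat group and 10.41, 10.03 and 9.83 in the control group. High fat replicate 1 fell inside the control range, so the groups overlapped at 0.51 (SE 0.26, limma adjusted p = 0.432), and its second probe set gave 0.86 without overlap.

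In the V0 sector, Atp6v0c, the proteolipid of the rotating ring, was tightly grouped. Its log2 signals were 11.66, 11.64 and 11.66 in the high fat group and 11.84, 11.83 and 11.88 in the control group. The difference of -0.19 (SE 0.11, 1.14-fold) was many times the SDs within the groups, 0.010 for high fat and 0.024 for control (n = 3 each). Limma, which draws the variance of each gene towards that of all genes, gave an unadjusted p of 0.129 and an adjusted p of 0.490. Atp6v0c was described besides the genes named by rule, and SDs from 3 arrays are imprecise. Atp6v0b, a further ring subunit, lay below control without overlap at -0.15 (SE 0.13), and its other probe set gave 0.043. Atp6v0a2 differed by -0.33 (SE 0.17), with overlap.

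Cathepsins, the lysosomal proteases, divided evenly: 6 of the 12 tested had a higher mean and 6 a lower mean in the high fat group, with a median of -0.013. Their best known members had estimates near 0 on the probe sets used. Ctsb, a cysteine protease, had 13.13, 12.96 and 13.08 in the high fat group and 13.21, 13.20 and 12.98 in the control group, at -0.072 (SE 0.13). Ctsd, the main aspartic protease, had 11.28, 11.07 and 11.36 in the high fat group and 10.99, 11.37 and 11.43 in the control group, at -0.031 (SE 0.17). Ctsl, a further cysteine protease, had 14.42, 14.75 and 14.51 in the high fat group and 14.54, 14.56 and 14.56 in the control group, at 0.0041 (SE 0.14). The other bright probe set of Ctsl gave 0.20, with overlap. All of these groups overlapped, and the 95% intervals of the differences were -0.38 to 0.24 for Ctsb, -0.43 to 0.37 for Ctsd and -0.32 to 0.33 for Ctsl.

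Ctso, a cysteine cathepsin, was the only tested cathepsin whose groups did not overlap. It had 10.90, 10.18 and 10.40 in the high fat group and 10.16, 10.10 and 9.93 in the control group, at 0.43 (SE 0.20, limma adjusted p = 0.402). High fat replicate 1, the array with pancreas transcripts, was the highest, and without it the difference was 0.23. Ctsh, an aminopeptidase, had 13.17, 12.59 and 13.14 in the high fat group and 13.25, 13.29 and 13.17 in the control group, at -0.27 (SE 0.18). High fat replicate 2 was the lowest array, and without it the difference was -0.079.

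Ctss, the cathepsin of antigen-presenting cells, was also lowest on high fat replicate 2, with 11.94, 11.19 and 12.05 in the high fat group and 11.82, 12.32 and 11.73 in the control group, at -0.23 (SE 0.27), and at 0.038 without that array. The 15 measured Kupffer cell and macrophage markers (of 19 listed, none at 0) summed to 26910 on that array, the lowest of the 6. Their range was 26910 to 34990 in the high fat group and 30440 to 34780 in the control group, and their part in Ctss was not tested. Ctsk, the osteoclast protease, had the most negative estimate of the module, -0.69, but an SE of 0.52 and overlapping groups, 5.92, 7.20 and 5.43 in the high fat group against 7.32, 7.25 and 6.05 in the control group.

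**Figure D4:**
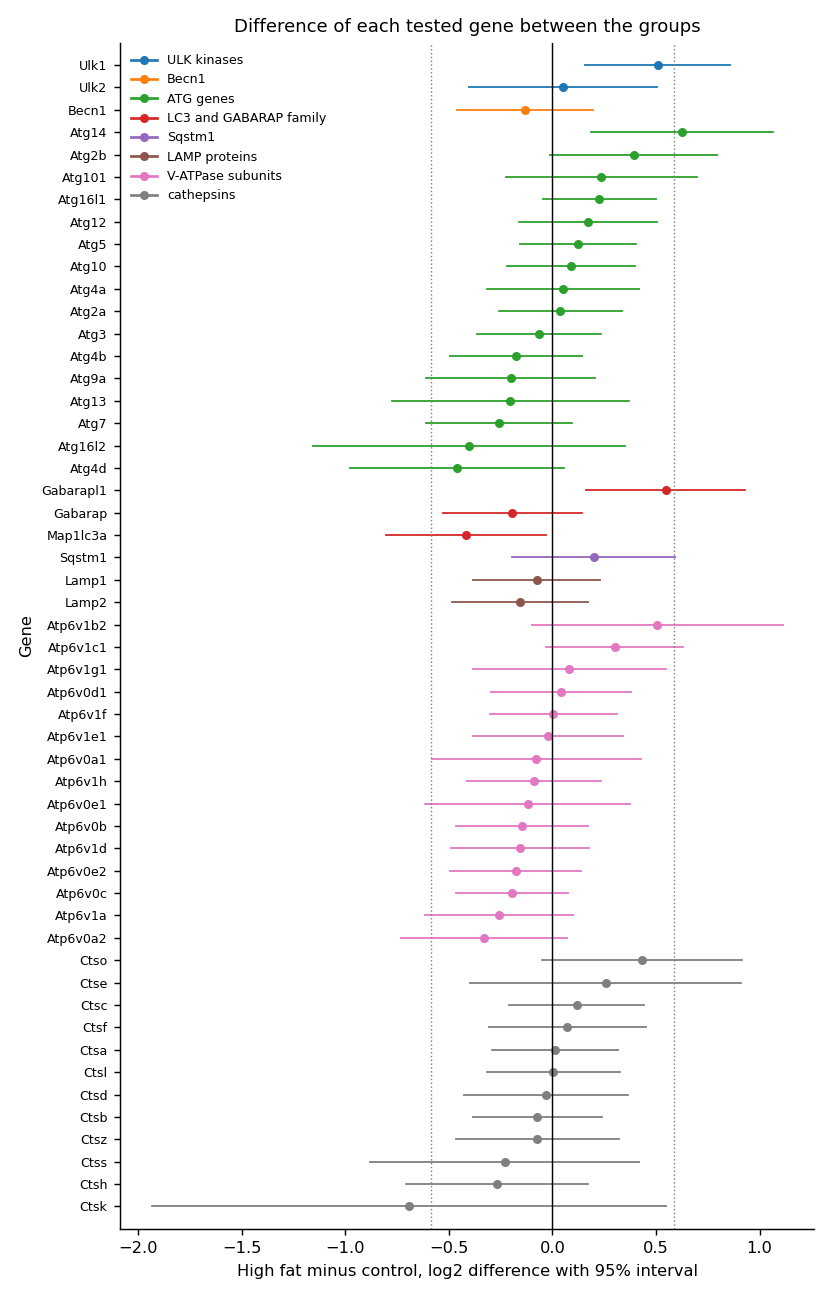
Difference in log2 signal, high fat minus control (horizontal axis), with its 95% interval from limma for each of the 52 tested members (rows, coloured by role), with dotted lines at 1.5-fold either way. The intervals of Atg14, Gabarapl1, Ulk1 and Map1lc3a leave out 0, and that of Ctsk is the widest, from -1.93 to 0.55.

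The 12 members that were not tested lay below the brightness limit of 5.83 by their mean, and 11 of them did so on every array. They were the cathepsins Ctsj, Ctsm, Ctsq and Ctsr, known from the rodent placenta, and Ctsw, a cathepsin of natural killer and T cells. The others were Lamp3, Lamp5, Atp6v0a4, Atp6v1b1, Atp6v1c2, Atp6v1g2 and Atp6v1g3, most of them subunits or proteins known from other tissues. Atp6v1c2 was the exception, with 6.55 in control replicate 3. Ctsw, whose values were picked out after they were seen, had 2.35, 2.25 and 2.16 in the high fat group and 3.77, 4.06 and 4.74 in the control group, which do not overlap but lie among the dimmest probe sets. The 13 lymphocyte and natural killer cell markers on the array (of 16 listed, none at 0) summed to 729 to 978 in the high fat group and 816.9 to 1130 in the control group, and their part in Ctsw was not tested.

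Genes of the same pathway outside the symbol rule were read from lists chosen with earlier results of these data known. None of their genes passed the adjusted test. Among 34 tested lysosomal hydrolases and activators, 14 had a higher mean and 20 a lower mean in the high fat group (median -0.041), and 1 of the 34 passed the looser rule, higher, beside 3.34% of all genes. That gene was Manba, the beta-mannosidase of glycoprotein breakdown, with 10.69, 10.44 and 10.43 in the high fat group and 9.04, 10.05 and 9.38 in the control group. Its high fat values lay above, by 1.03 (SE 0.26, 2.04-fold, limma adjusted p = 0.206). Acp2, lysosomal acid phosphatase, differed by -0.58 (SE 0.20, adjusted p = 0.293) and Lipa, the acid lipase that splits cholesteryl esters and triglycerides in the lysosome, by 0.38 (SE 0.15, adjusted p = 0.341), both without overlap.

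Of 31 tested lysosomal membrane and sorting genes, 13 had a higher mean and 18 a lower mean (median -0.018), and 1 of the 31 passed the looser rule, lower, beside 3.36% of all genes. Cd63, a tetraspanin of late endosomes and lysosomes, had 10.80, 10.98 and 11.29 in the high fat group and 12.39, 12.08 and 12.09 in the control group. It lay below by -1.17 (SE 0.17, 2.24-fold, unadjusted p = 0.00029, limma adjusted p = 0.131), and stayed past the looser rule with any array left out. Gga3, a sorting adaptor, differed by -0.56 (SE 0.19) and Tpcn1, a lysosomal ion channel, by -0.38 (SE 0.15).

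Of 26 tested genes of autophagosome formation and fusion, 14 had a higher mean and 12 a lower mean (median 0.012). Of these, 0 passed the looser rule in either direction, beside 6.69% of all genes. The smallest p values belonged to Vamp8, a fusion SNARE, at -0.40 (SE 0.12), Wipi1, which reads the lipid signal, at -0.40 (SE 0.14), and Vps16, a tethering subunit, at -0.40 (SE 0.14). All 3, picked for their small p, lay below control without overlap, and the dimmer probe set of Wipi1 gave 0.048. In the list, 4 of the 26 lay below without overlap (15.4%, beside 11.6% of all genes) and 2 above (7.69%, beside 9.26%). Of 14 tested selective autophagy receptors, 6 had a higher mean and 8 a lower mean (median -0.090). The looser rule was passed by 0 of them, beside 6.69% of all genes. Retreg1, a receptor for endoplasmic reticulum, differed by -0.71 (SE 0.30), with high fat replicate 3 lowest at 11.42, and by -0.34 without that array. Wdfy3, a large adaptor protein, differed by -0.30 (SE 0.12) on the probe set used, 0.23 on its other bright probe set and -0.035 on their mean, so its direction is not settled. Ncoa4, the ferritin receptor, differed by -0.33 (SE 0.19), and by -0.17 without control replicate 3.

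Of the 6 lists of pathway genes, the nutrient-sensing list held the highest count at the looser rule, with 4 of 37 tested genes higher, beside 3.34% of all genes, and 1 lower, beside 3.36%. Its median was -0.025, with 16 higher and 21 lower means, and 6 of the 37 (16.2%) had an unadjusted p under 0.05, beside 14% of all genes. Flcn encodes folliculin, which with the FNIP proteins acts on the Rag GTPases that recruit mTORC1 and hold TFEB family factors at the lysosome. Flcn had 10.70, 11.39 and 11.20 in the high fat group and 10.34, 10.35 and 10.25 in the control group, above without overlap, by 0.78 (SE 0.19, 1.72-fold, limma adjusted p = 0.206).

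Its partners gave like values. Fnip1 had 10.71, 11.43 and 11.23 in the high fat group and 10.29, 10.62 and 10.07 in the control group, at 0.80 (SE 0.23, adjusted p = 0.247). A further probe set of Fnip1 gave 0.70, with overlapping groups. Fnip2 had 11.19, 11.83 and 11.81 in the high fat group and 11.10, 10.85 and 10.70 in the control group, at 0.73 (SE 0.22, adjusted p = 0.251), with a further bright probe set at 0.62. On the probe sets used, the high fat arrays of all 3 genes lay above the control arrays. High fat replicate 1 was the lowest high fat array in each, and all 3 genes stayed past the looser rule with any array left out.

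Sesn1, a leucine-binding inhibitor of mTORC1 signalling, differed by 0.80 (SE 0.34, adjusted p = 0.353) with overlapping groups, and its second probe set gave 0.096. Prkab1, the beta subunit of AMPK that holds the kinase together, had 10.29, 10.48 and 10.54 in the high fat group and 11.01, 10.89 and 11.22 in the control group. It lay below without overlap, by -0.60 (SE 0.15, 1.52-fold, adjusted p = 0.198), and without high fat replicate 1 or control replicate 3 the difference was -0.53 or -0.51, under 1.5-fold. Of 13 listed cathepsin inhibitors 8 were on the array and 5 were tested. All 5 had a lower mean (median -0.23), beside 5509 of 10372 genes tested. The looser rule was passed by 0 of the 5, beside 6.69% of all genes in either direction. They were led by Serpina3n at -0.38 (SE 0.15), Cstb, cystatin B, at -0.25 (SE 0.16) and Serpinb6a at -0.23 (SE 0.17). The remaining tested inhibitors were Kng2l1 at -0.072 and Cst3 at -0.068, both with overlap.

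**Figure D5:**
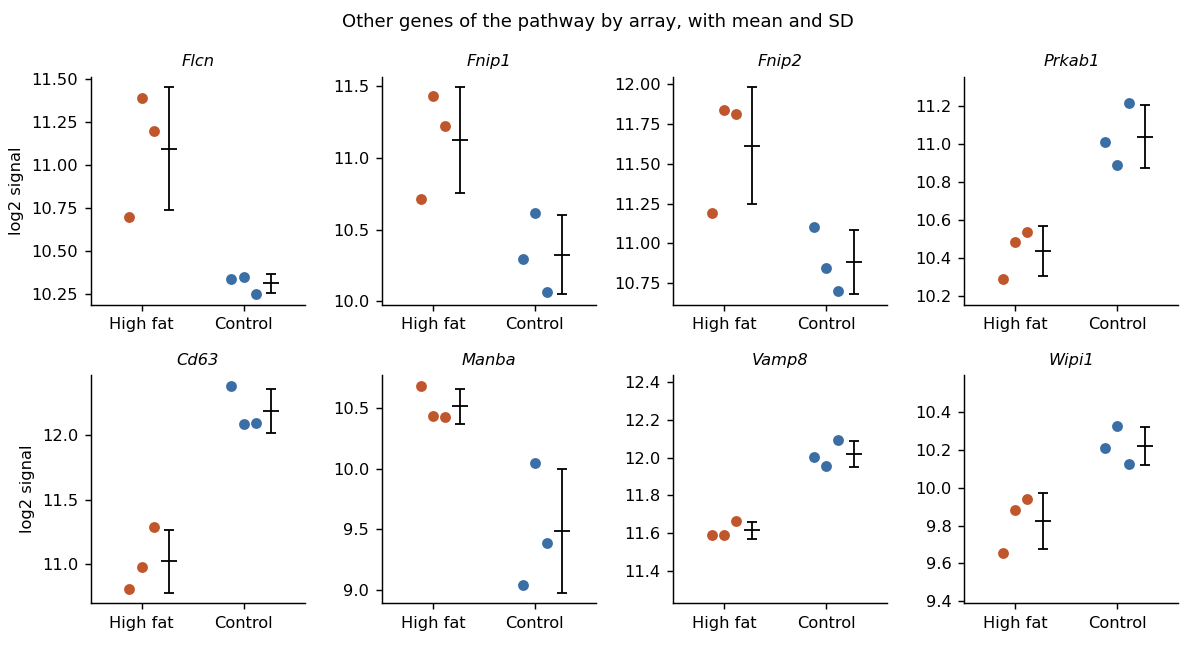
Log2 signal (vertical axis) of pathway genes outside the symbol rule on each array, high fat left of control in each panel, with points for arrays and black bars for the group mean and SD (n = 3), each panel on its own axis. The high fat arrays lie above all control arrays for Flcn, Fnip1, Fnip2 and Manba, and below them for Prkab1, Cd63, Vamp8 and Wipi1.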

How the data were processed

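Liver RNA of 6 rat pups was measured on Affymetrix 3' expression arrays, after cRNA amplification and biotin labelling (labels' protocols). The values deposited by the authors are log2 signals, read off the values: undoing base 2 gives a 2% trimmed mean of 500.2 on each array. Which software summarised the probes is not given in the sources used. Because array quartiles differed by 0.22, above a limit of 0.1, the arrays were quantile-normalized. Of 31042 probe sets other than controls, 20826 were paired with 1 gene, 436 with several and 9780 were not named. Probe sets in the lowest 40% by mean (under 5.83) were dropped. The model was limma's lmFit and eBayes (version 3.58.1, R 4.3.3), 2-sided. P-values were adjusted by Benjamini-Hochberg over the 10372 genes, and every adjusted p comes from limma. Differences are high fat minus control in log2 units. The test code was run on simulated data with independent errors and planted changes larger than any member difference. That check does not cover differences of the sizes reported for the members.

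The members, lists, tests and the rule for named genes were chosen with earlier results of these data known. The rule named the members and list genes with the smallest p in each role or list, those past the looser rule, a set of anchor genes, and members whose probe sets differ in sign. Of 20 members with several probe sets, 17 had more than 1 above the limit, and for 5 (Atg5, Atg9a, Atp6v0b, Lamp2 and Sqstm1) these differed in sign. Promoters came from RefSeq (GRCr8). Alternatives covered normalization, filter, probe sets, variance model, weights, block, a 3' minus 5' covariate and each array left out. The covariate was the mean 3' minus 5' log2 difference of the beta-actin, GAPDH and hexokinase control probe sets. Hexokinase varied most, from -3.11 to 3.79, against 3.19 to 4.50 for beta-actin and 0.65 to 1.63 for GAPDH. It is therefore not a clean measure of RNA integrity. No pair of arrays was identical (r of 0.952 to 0.972). The number of arrays limits the precision. Figures were drawn with matplotlib 3.10.9.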

Additional observations from a re-analysis of the deposited data

How the results depend on the processing

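The count of members past an adjusted p under 0.05 was 0 under every alternative run, and the count of all genes, 4, became 1 without the brightness filter, 8 with a variance trend and 0 with the 3' minus 5' covariate (951 genes at an unadjusted p under 0.05). With the replicate number as a block it was 0 (1102 genes at an unadjusted p under 0.05, against 1456). The deviations of same-numbered samples had correlations of -0.128, -0.127 and -0.136, and those of differently numbered samples 0.043 to 0.082. Deviations from the mean of 3 arrays are tied to each other, so these values cannot decide whether the numbers pair the samples. Leaving out 1 array gave 0 to 4 genes. The count of members higher at the looser rule, 1, was 2 with the mean of a gene's probe sets (Atg14 and Atp6v1b2), 2 with the covariate (Atg14 and Ctse), 3 with no fold limit, 0 at an unadjusted p under 0.01, and 0 to 3 with 1 array left out: 3 without high fat replicate 1 (Atg14, Gabarapl1 and Atp6v1b2), 2 without control replicate 1 (Atg14 and Atp6v1b2) and 0 without control replicate 2. The single gene was Ctso without high fat replicate 2 and Gabarapl1 without control replicate 3, in place of Atg14. Leaving out high fat replicates 1 and 3 together left replicate 2 as the only high fat array, so only differences are read from that setting. There Atp6v1b2 differed by 0.94 and Ctsh by -0.64. The count lower, 0, was 2 without the filter (Ctsw and Atp6v1g2), 1 with no fold limit and 0 to 1 with 1 array left out (Ctsk without high fat replicate 2, Atg4d without control replicate 1, Atg16l2 without control replicate 2). The median member difference ran from -0.073 to 0.011 with 1 array left out, positive without control replicate 2, and was -0.084 with median centring, which moved the median of all genes to -0.045, against -0.022. The causes were not tested.

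Sign was followed for 60 genes, 43 named by the rule and 17 described besides, and 47 kept it under every alternative that could test them (Gga3 and Ctsk were not tested under the stricter filter). Ctsl, at 0.0041, was -0.10 as deposited, -0.12 with median centring, -0.011 with array weights, -0.048 with the covariate and -0.091 to 0.074 with 1 array left out. With 1 array left out, Ulk2 ran from -0.086 to 0.19, Ctsd from -0.17 to 0.053, Ctss from -0.39 to 0.038, Atg13 from -0.35 to 0.021, Atg2a from -0.021 to 0.092, Atg4a from -0.079 to 0.13, Tfeb from -0.52 to 0.0015 and Tfe3 from -0.21 to 0.32. Without high fat replicates 1 and 3 together, which leaves only high fat replicate 2, Ulk2 was -0.23, Cstb 0.0019, Atg2a -0.011, Atg3 0.015 and Ctsk 0.33. With the covariate Atg16l2 was 0.0049.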

Other observations

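TFEB, a factor that reads elements built on CACGTG, had a Tfeb log2 signal of 8.16, 7.89 and 8.04 in the high fat group and 7.97, 8.09 and 9.01 in the control group, with overlap, at -0.32 (SE 0.28), and at 0.0015 without control replicate 3. Its relative Tfe3 differed by 0.13 (SE 0.30), and by -0.21 without control replicate 2, and Mtor, the kinase that TFEB answers to, by -0.16 (SE 0.12) without overlap. These genes were chosen after their values were seen.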
